A study of Mus musculus with 6 samples.

Results

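Klrc1, Klrc2, Klrd1, Klre1 and Klrk1 are 5 lectin-like receptor genes of the natural killer gene complex. They were taken by symbol from the gene list shared by all count matrices, and make up 5 of the 32285 genes measured. The data are single-cell RNA sequencing counts of T lymphocytes sorted from kidneys of wild type C57BL/6J male mice of 7 to 8 weeks. The control libraries came from normal kidneys. The IR libraries came from mice whose renal pedicles were both clamped for 30 min and then released (ischemia-reperfusion). From each condition, live CD45+ cells that stained for the TCR beta chain were sorted into CD4+, CD8+ and CD4-CD8- (double negative, DN) cells, which gave 1 library for each of the 6 groups. The time from reperfusion to sorting and the number of mice behind a library are not given in the sources used here. With 1 library per group there is no replicate check, no test and no p-value, and all intervals below are 95% intervals that cover counting error only.

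These genes encode receptors that natural killer cells and subsets of T cells use to read MHC class I and stress ligands on other cells. CD94, the product of Klrd1, pairs with NKG2A, the inhibitory product of Klrc1, or with NKG2C, the activating product of Klrc2, and both pairs bind the nonclassical class I molecule encoded by H2-T23. NKG2D, the product of Klrk1, forms a homodimer that recognises Raet1, H60 and Ulbp1 ligands and signals through the adaptor Hcst. The product of Klre1 pairs with that of Klri1 or Klri2, as an inhibitory or an activating receptor respectively.

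In GRCm38 (mm10), with GENCODE M21 annotation, all 5 genes lie within 101069 bp of chromosome 6. Klre1 (ENSMUSG00000050241) spans 129577905 to 129585827 on the plus strand. Klrd1 (ENSMUSG00000030165) spans 129591782 to 129598775 on the same strand. Klrk1 (ENSMUSG00000030149) spans 129610323 to 129623864 on the minus strand. Klrc2 (ENSMUSG00000052736) spans 129647496 to 129660689 and Klrc1 (ENSMUSG00000030167) spans 129666015 to 129678973, both on the minus strand. No other annotated gene overlaps any of the 5. Klrc1 and Klrc2 share sequence toward the 3′ end, where these libraries are read. The last 500 bases of each isoform in the GENCODE basic set were aligned, and the longest alignment was kept. It was at 99% identity for Klrc1 to Klrc2, at 88.7% for Klrc2 to Klrc1 and at 90.4% for Klrc2 to Klrc3. These values belong to 1 isoform each, not to every 3′ end of Klrc1 and Klrc2. Of the 91-base windows in the last 500 bases of their transcripts, 21.5% of the Klrc1 windows and 8.18% of the Klrc2 windows occur exactly in another gene. No such window of Klrd1, Klre1 or Klrk1 is shared. For part of the Klrc1 and Klrc2 counts it is therefore uncertain which gene a read came from.

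RefSeq promoter sequences (GRCm38.p6, from 250 bases before to 50 bases after a start site) were matched for Klrc1, Klrc2, Klre1 and Klrk1, and the promoter of Klrd1 was not analysed here. They are shown because genes of the RUNX and T-box families are among the regulators measured here. Capitals mark the RUNX core TGTGGT on either strand, which reads ACCACA on the other strand. Each is printed 5′ to 3′ on the strand of its gene. Klrc2 and Klre1 have 2 listed start sites each, and the window with the lower coordinate is shown.
Klrc1, minus strand, chr6:129678924-129679223: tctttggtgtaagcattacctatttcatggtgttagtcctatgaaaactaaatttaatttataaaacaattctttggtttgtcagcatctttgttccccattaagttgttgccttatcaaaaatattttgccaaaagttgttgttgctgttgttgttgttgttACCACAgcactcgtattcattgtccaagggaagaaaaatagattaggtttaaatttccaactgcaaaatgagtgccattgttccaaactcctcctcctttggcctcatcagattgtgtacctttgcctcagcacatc
Klrc2, minus strand, chr6:129660507-129660806: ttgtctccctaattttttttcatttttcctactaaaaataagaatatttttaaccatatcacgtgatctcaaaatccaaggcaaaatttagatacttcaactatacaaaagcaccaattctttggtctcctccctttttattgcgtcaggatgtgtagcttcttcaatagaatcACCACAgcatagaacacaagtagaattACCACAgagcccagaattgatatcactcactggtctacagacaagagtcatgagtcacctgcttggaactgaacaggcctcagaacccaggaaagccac
Klre1, plus strand, chr6:129577963-129578262: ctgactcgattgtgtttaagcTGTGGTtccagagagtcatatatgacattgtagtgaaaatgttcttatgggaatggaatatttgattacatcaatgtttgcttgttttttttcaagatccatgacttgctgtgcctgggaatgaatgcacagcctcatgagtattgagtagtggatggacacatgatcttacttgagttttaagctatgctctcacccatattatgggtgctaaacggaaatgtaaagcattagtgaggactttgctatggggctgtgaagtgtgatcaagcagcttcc
Klrk1, minus strand, chr6:129623815-129624114: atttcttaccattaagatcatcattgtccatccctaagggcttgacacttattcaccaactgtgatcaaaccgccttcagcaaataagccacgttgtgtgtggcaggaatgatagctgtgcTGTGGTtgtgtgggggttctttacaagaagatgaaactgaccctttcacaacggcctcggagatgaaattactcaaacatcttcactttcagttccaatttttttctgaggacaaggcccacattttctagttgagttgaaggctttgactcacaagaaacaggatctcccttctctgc
The core started 87 bases before the start site in Klrc1, at 76 and 49 bases before it in Klrc2, at 229 bases before it in Klre1 and at 129 bases before it in Klrk1. The second Klre1 window held none. Of all 32851 RefSeq promoter windows of this length, 16.8% held the RUNX core. The T-box core GGTGTGA, searched on both strands, was in none of the windows of these 4 genes and in 3.98% of all windows.

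Cells were kept where they passed the quality filters and carried T cell transcripts. That left 47597 of 54039 barcodes, with 3957 to 10030 cells in a library. The median was 6637 to 8366 UMIs (unique molecular counts) per cell in the control libraries and 1462 to 2360 in the IR libraries. Ribosomal, mitochondrial and Malat1 transcripts, which were taken out of the totals, made up 21.04 to 26.58% of UMIs in the control libraries and 30.5 to 45.2% in the IR libraries. According to the file headers, Cell Ranger 5.0.1 made the control matrices and 6.0.1 made the IR matrices, so condition, depth and software version cannot be told apart. The sorts matched their labels: Cd4 was at 210 and 146 CPM (UMIs of a gene per 1000000 UMIs of its library) in the CD4 libraries and at most 0.47 elsewhere, and Cd8a was at 868 and 401 CPM in the CD8 libraries, at most 0.25 CPM in the other control libraries and without a UMI in IR CD4 and IR DN cells, where a count of 0 allows up to 0.195 and 0.694 CPM. Cd3e was at 602 to 1104 CPM and Trac at 726 to 985 CPM in all 6 libraries. Of the kept cells, 308 had a barcode that also occurs in another library of the same condition. Leaving them out moved no log2 ratio of the 5 genes by more than 0.0112.

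Klrd1, the CD94 chain, was the member whose level did not set DN cells apart from CD8 cells. In the control libraries it stood at 72.5 CPM in CD4 cells (interval 70.1 to 74.9), at 269 CPM in CD8 cells (264 to 274) and at 307 CPM in DN cells (303 to 312). In the IR libraries it stood at 160.45 CPM in CD4 cells (154 to 167), at 728 CPM in CD8 cells (708 to 749.5) and at 560 CPM in DN cells (538 to 583). CD4 cells were lowest in both conditions and CD8 cells were highest in the IR libraries. In the control libraries DN cells were above CD8 cells, but below them without the cells that held a UMI of Klrb1c, the NK1.1 gene, at a log2 ratio of -0.46. Each IR library lay above its control library.

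Klrc1, the inhibitory NKG2A chain, stood at 63.9 CPM in control CD4 cells, 116 CPM in control CD8 cells and 293 CPM in control DN cells. After IR it stood at 59.1, 70.6 and 262 CPM in the same order. Both DN libraries lay far above the other 4. Klrc2, the activating NKG2C chain, stood at 33.4, 46.2 and 186 CPM in control CD4, CD8 and DN cells and at 25.2, 15.1 and 119 CPM in the IR libraries. Its lowest level was that of IR CD8 cells (interval 12.3 to 18.4), below both CD4 libraries.

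Klre1 stood at 26.1, 32.9 and 223 CPM in control CD4, CD8 and DN cells and at 21.3, 29.3 and 146 CPM in the IR libraries. The CD4 and CD8 libraries of both conditions spanned only 21.3 to 32.9 CPM. The interval of IR CD8 cells (25.3 to 33.8) overlapped those of control CD4 and control CD8 cells. Klrk1, the NKG2D gene, stood at 129, 227 and 619 CPM in control CD4, CD8 and DN cells and at 118, 88.4 and 462 CPM in the IR libraries. CD8 cells lay above CD4 cells in the control libraries and below them in the IR libraries.

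**Figure D1:**
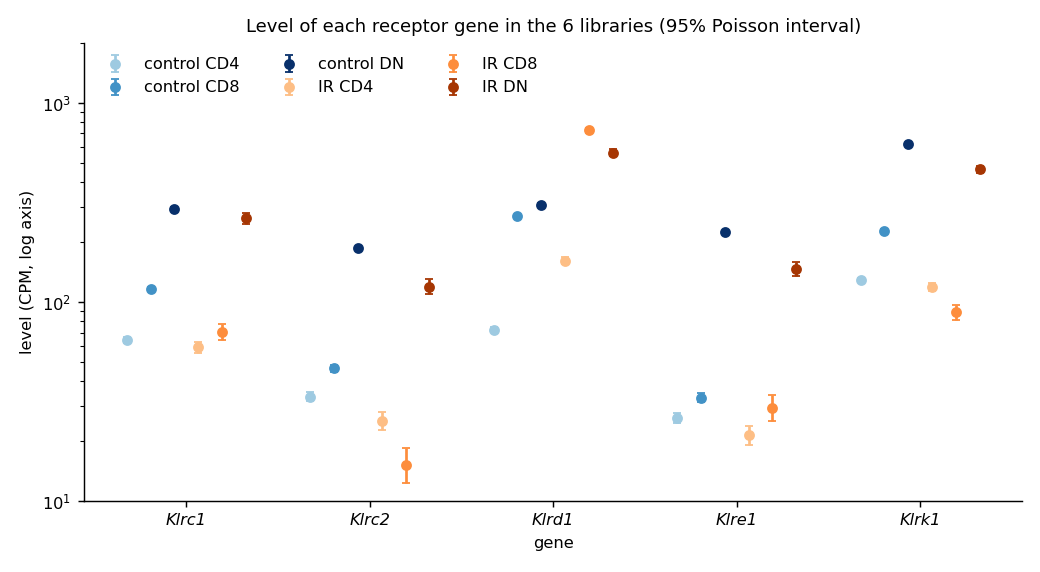
Level of each of the 5 genes (CPM, log axis) in the 6 libraries, with 95% Poisson intervals, 1 library per point. Klrc1, Klrc2, Klre1 and Klrk1 are highest in the control DN and IR DN libraries, whereas Klrd1 reaches 728 CPM in IR CD8 cells against 560 CPM in IR DN cells.

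DN cells were compared with CD4 cells first, since this asks which receptor transcripts mark the DN subset. A gene was called where its CPM differed by at least 2-fold and reached 10 CPM in the higher library. All 5 genes were called higher in control DN than in control CD4 cells, against 1.36% of the 8854 genes tested (1.39% were lower). The log2 ratios were 3.09 for Klre1 (interval 3.01 to 3.18), 2.47 for Klrc2, 2.26 for Klrk1, 2.20 for Klrc1 and 2.08 for Klrd1. In the IR libraries all 5 were again called higher in DN than in CD4 cells, against 4.80% of 8890 genes (2.38% were lower). The log2 ratios there were 2.78 for Klre1 (2.58 to 2.97), 2.24 for Klrc2, 2.15 for Klrc1, 1.97 for Klrk1 and 1.80 for Klrd1. Many of the lower levels were not above the background given with the detection shares. Shares lay within the background interval for all 5 genes in control CD4 cells, for Klrc2, Klre1 and Klrk1 in control CD8 cells, for Klrc1, Klrc2 and Klre1 in IR CD4 cells, and for all but Klrd1 in IR CD8 cells. Ratios that rest on these levels are given as ratios of UMIs, and neither their size nor their order is read as one of expression. The median log2 ratio over all genes tested was between -0.02 and 0.10 in the 4 comparisons of DN cells with CD4 or CD8 cells.

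Against CD8 cells, 4 of the 5 genes were called higher in control DN cells, where 3.54% of 8966 genes were higher and 3.03% lower. The log2 ratios were 2.76 for Klre1, 2.01 for Klrc2, 1.45 for Klrk1 and 1.34 for Klrc1. Those of Klre1, Klrc2 and Klrk1 rest on control CD8 levels within background. Klrd1 was not called, at a log2 ratio of 0.19 (interval 0.16 to 0.23). In the IR libraries the same 4 genes were called higher in DN cells, against 7.66% of 8965 genes (4.15% were lower), with log2 ratios of 2.98 for Klrc2, 2.39 for Klrk1, 2.32 for Klre1 and 1.89 for Klrc1. Klrd1 had a log2 ratio of -0.38 there (-0.45 to -0.31), which was not called. Without the cells that held a Klrb1c UMI, Klrc1 and Klrk1 were no longer called in the control comparison, at log2 ratios of 0.53 and 0.87. That setting was chosen after the data were seen. It left 4904 of the 8880 control DN and 9131 of the 9276 control CD8 cells, so cells were not removed alike.

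Between CD8 and CD4 cells, Klrd1 alone was called higher in CD8 cells. Its log2 ratio was 1.89 (1.84 to 1.95) in the control libraries, where 1.77% of 8912 genes were called higher and 2.61% lower, and 2.18 (2.11 to 2.25) in the IR libraries, where 3.93% of 8749 genes were higher and 3.57% lower. The other members had log2 ratios of 0.33 to 0.86 in the control libraries and of -0.74 to 0.46 in the IR libraries. Without the cells that held a Klrb1c UMI all 5 were called higher in control CD8 than in control CD4 cells, with Klrc1 at 1.69 and Klrk1 at 1.499. That setting left 8094 of 9168 control CD4 and 9131 of 9276 control CD8 cells. Cells were thus not removed alike, and these calls are not read as a difference between the subsets.

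The comparison of IR with control cells asks whether the receptor transcripts moved with injury within a subset. In DN cells none of the 5 genes was called, while 8.32% of 9192 genes were called higher and 11.3% lower after IR. The log2 ratios of IR over control DN cells were 0.87 for Klrd1 (0.80 to 0.93), -0.16 for Klrc1, -0.42 for Klrk1, -0.61 for Klre1 and -0.64 for Klrc2. Without the cells that held a Klrb1c UMI, Klrd1 was called higher at 1.46, and the other 4 turned to 0.57 for Klrc1, 0.07 for Klrk1, 0.23 for Klre1 and 0.10 for Klrc2. Leaving out these cells depends on depth: Klrb1c stood at 209 CPM in control and 233 CPM in IR DN cells, but 4904 of 8880 control cells and 3198 of 3957 IR cells were left, so cells were not removed alike and the IR over control ratios of this setting are not read as a change. In CD4 cells Klrd1 was called higher after IR, at a log2 ratio of 1.15 (1.07 to 1.22), against 7.70% of 9034 genes (15.2% were lower). The other 4 had log2 ratios of -0.40 to -0.11 and were not called. Their direction turned without the cells that held a Klrb1c UMI, which has the same limit, to 0.41 for Klrc1, 0.26 for Klrk1, 0.15 for Klre1 and 0.10 for Klrc2. With cells thinned before summing, that of Klrc1 (0.08), Klre1 (0.14) and Klrk1 (0.04) turned as well.

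In CD8 cells the 5 genes went in different directions. Klrd1 was called higher after IR, with a log2 ratio of 1.44 (1.39 to 1.49), against 7.96% of 9108 genes. Klrc2 and Klrk1 were called lower, with log2 ratios of -1.61 (-1.92 to -1.32) and -1.36 (-1.48 to -1.24), against 17.7% of genes. The shares of both genes lay within the background interval in both CD8 libraries, and the call of Klrc2 was lost with a minimum of 50 CPM. Klrc1 had a log2 ratio of -0.71 and Klre1 of -0.17, neither called. The median log2 ratio of all genes tested was -0.26 in DN cells, -0.26 in CD4 cells and -0.37 in CD8 cells.

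With the ribosomal, mitochondrial and Malat1 transcripts kept in the totals these medians moved to -0.45, -0.63 and -0.81. The call of Klrd1 in CD4 cells was then lost at a log2 ratio of 0.79, and Klrc1 was called lower in CD8 cells at -1.13. The share of called genes that were higher after IR was 42.3% in DN, 33.6% in CD4 and 31.1% in CD8 cells, and became 25.9%, 11.6% and 9.8% with those transcripts kept. It became 70.6%, 62.0% and 65.4% after centring by intronic length, a setting chosen after the data were seen, under which every call of the 5 genes stood. In the IR libraries the higher share of calls also moved by scaling, from 64.9% to 85.2% for DN over CD8 cells and from 52.4% to 35.7% for CD8 over CD4 cells with those transcripts kept, and to 51.4% for DN over CD8 cells with TMM scaling.

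**Figure D2:**
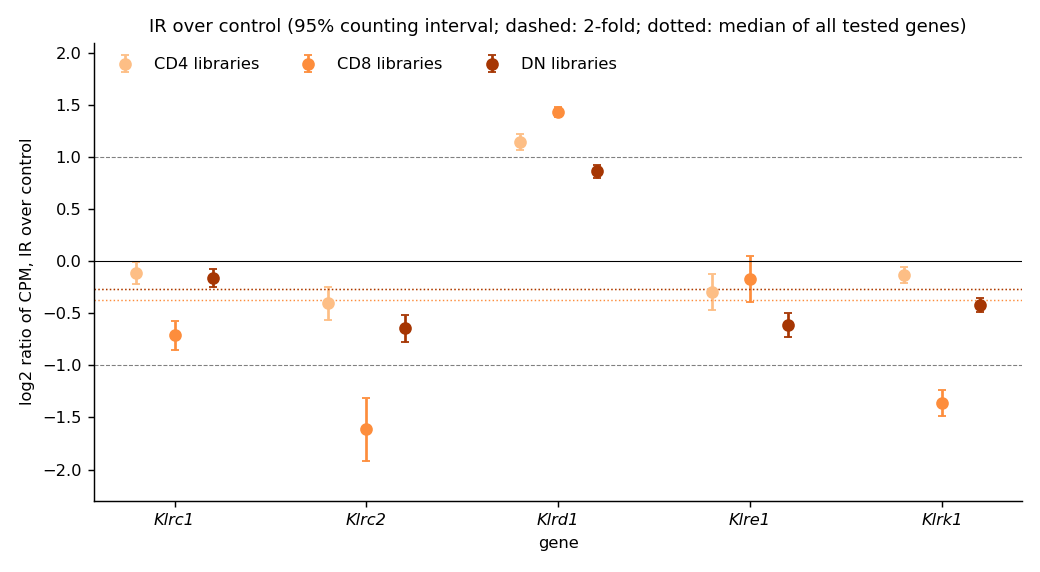
Log2 ratio of CPM in the IR library over the control library for each gene and subset, with 95% counting intervals. Dashed lines mark 2-fold and dotted lines the median of all tested genes (the DN and CD4 medians, both -0.26, lie on each other). Klrd1 lies above 0 in all 3 subsets, and Klrc2 and Klrk1 lie below -1 in CD8 cells.

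Detection per cell was read after each cell was thinned to 1000 UMIs, which matched total UMIs but not the UMIs left after the ribosomal, mitochondrial and Malat1 transcripts, whose share was larger in the IR libraries. This left out 361 of the 3957 IR DN cells and 28 of the 8880 control DN cells, with 85 to 555 cells left out of the other libraries. In control DN cells Klrk1 was detected in 30.9% (29.9 to 31.8%), and in IR DN cells in 22.8% (21.4 to 24.2%). In CD4 cells it was found in 6.66% before and 5.82% after IR, and in CD8 cells in 12.5% and 4.08%. Without thinning the Klrk1 shares of control and IR DN cells were 61.6% and 30.0%.

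The share with Klrd1 went from 18.9% (control) to 27.8% (IR) in DN cells, from 15.8% to 27.6% in CD8 cells and from 4.51% to 7.77% in CD4 cells. The intervals of IR DN (26.3 to 29.2%) and IR CD8 cells (26.4 to 28.7%) overlapped. Each subset had the higher share of Klrd1 after IR. Without thinning the Klrd1 shares ran the other way, against the direction of the CPM, and no order is read from them. In DN cells they went from 53.9% of the control cells to 1371 of the 3957 IR cells. In CD8 cells they went from 46.2% to 41.1% and in CD4 cells from 15.6% to 13.8%.

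Klrc1 was found in 16.5% of control DN and 13.7% of IR DN cells, Klre1 in 13.02% and 8.29%, and Klrc2 in 12.0% and 7.26%. In CD4 and CD8 cells Klrc1 was found in 3.19 to 6.98% of cells, Klrc2 in 0.75 to 2.92% and Klre1 in 1.29 to 1.91%. For a background, barcodes with more UMIs of non-T lineage genes than of T cell genes were read the same way. Among 86 such control barcodes, with library medians of 3346 to 7074 UMIs, Klrk1 was in 5.81%, Klrc2 in 4.65%, Klrd1 in 3.49%, Klre1 in 3.49% and Klrc1 in 1.16%. Among 181 such IR barcodes, with medians of 1597 to 2037 UMIs, Klrd1 was in 3.31% and the others in 0.552 to 1.66%. The shares of Klrc2 and Klre1 in control CD4 and control CD8 cells were below these background shares, and are not read as expression. The background barcodes were pooled over the 3 libraries of a condition, DN included, and doublets with T cells could be among them. For Klrc2 and Klre1 it rests on 4 and 3 of the 86 control barcodes, with wide intervals of 1.28 to 11.5% and 0.73 to 9.86%. A share within its background interval therefore does not show that the gene is absent. In both conditions the DN share of each of the 5 genes lay above the upper bound of its background interval. The margin was small for Klrc2 in control DN cells, at 12.0% (11.3 to 12.7%) against an upper bound of 11.5%. Outside DN cells 5 shares lay above that bound, those of Klrd1 in control CD8, IR CD8 and IR CD4 cells, of Klrc1 in control CD8 cells and of Klrk1 in IR CD4 cells.

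**Figure D3:**
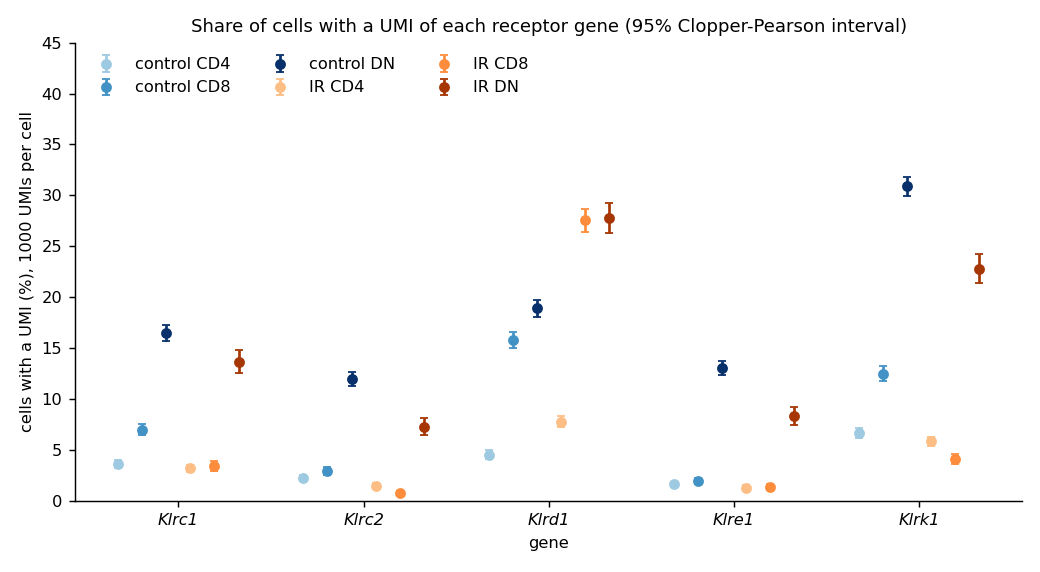
Share of cells with at least 1 UMI of each gene after thinning to 1000 UMIs per cell, with 95% Clopper-Pearson intervals. Klrd1 is at 27.6% in IR CD8 and 27.8% in IR DN cells, and Klrk1 is highest in control DN cells at 30.9%.

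At least 1 of the 5 genes was detected in 51.8% (50.7 to 52.8%) of DN cells before and 52.1% (50.4 to 53.7%) after IR. The same share was 30.4% and 31.6% in control and IR CD8 cells and 13.04% and 14.5% in control and IR CD4 cells. In DN and CD8 cells the control and IR intervals overlapped. In CD8 cells they did not overlap at 500 retained UMIs, a setting chosen after the data were seen, with 23.7% (22.9 to 24.6%) in control and 30.0% (28.8 to 31.1%) in IR cells, or without thinning, with 59.2% and 45.6%. Without thinning those of DN cells did not overlap either, with 73.6% (72.7 to 74.6%) and 60.1% (58.5 to 61.6%). Cells with 2 or more of the genes made up 26.7% of control DN and 21.1% of IR DN cells, 7.87% of control CD8 and 4.60% of IR CD8 cells, and 4.15% and 4.02% of control and IR CD4 cells. All 5 genes were found together in 29 control DN cells and 2 IR DN cells, and in 1 cell or none of each other library.

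Which receptors share a cell was measured as the number of cells with both genes over the number that the product of the shares gives. In all 6 libraries this ratio was above 1 for each of the 10 pairs. The share of all gene pairs above 1 was not measured, so this count is not read as particular to these genes. The ratio cannot exceed 1 over the larger share, so the ranges of libraries with unlike shares are not on a like scale. It ran from 1.34 to 2.54 in control DN cells and from 1.20 to 2.27 in IR DN cells. It ran from 3.85 to 11.5 in control CD4 and 3.63 to 9.89 in IR CD4 cells, and from 1.71 to 4.51 in control CD8 and 1.499 to 9.06 in IR CD8 cells. The cells of 1 library are not replicates, and pairs that share a gene are not independent. The highest ratios outside DN cells were those of Klrc2 with Klre1, at 11.5 in control CD4, 9.89 in IR CD4 and 4.51 in control CD8 cells, and of Klrc2 with Klrk1 in IR CD8 cells, at 9.06 over 17 cells. All of these genes had shares within the background interval there, and the ratios are not read as expression in the same cell. In control CD4 cells 37 held both Klrc2 and Klre1, against 3.21 given by the product of the shares. Without thinning, control CD4 cells with a Klre1 UMI held 2.90 Klre1 UMIs on average and at most 14. Whether such cells express the receptors was not tested.

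The CD94 and NKG2A transcripts, whose products form a receptor together, were the pair with the lowest ratio in control DN cells at 1000 UMIs, at 1.34. Without thinning another pair was lowest there, at 1.35. Of 1457 control DN cells with a Klrc1 UMI, 25.4% (23.2 to 27.7%) also had a Klrd1 UMI, against 17.6% (16.8 to 18.5%) of cells without Klrc1. In IR DN cells these shares were 38.0% and 26.1%. For NKG2C, 29.1% of the control DN cells with a Klrc2 UMI had a Klrd1 UMI, against 17.5% of those without. In IR DN cells these shares were 33.3% (27.6 to 39.4%) and 27.3% (25.8 to 28.9%), with overlapping intervals. Klrd1 without a UMI of Klrc1 or Klrc2 was found in 12.6% of control DN and 20.7% of IR DN cells, in 13.2% of control CD8 and 25.7% of IR CD8 cells, and in 3.57% of control CD4 and 6.44% of IR CD4 cells. At 1000 UMIs a missing partner may be a transcript that was not sampled: in the 8880 control DN cells without thinning, 28.3% had both Klrc1 and Klrd1 and 8.68% had Klrc1 without Klrd1.

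Klrc1 and Klrc2, the inhibitory and activating partners of CD94, had the highest ratio in control DN cells. Of the control DN cells with a Klrc2 UMI 41.8% also had Klrc1, against 13.002% of the others, and in IR DN cells these shares were 24.5% and 12.8%. Reads that the pair share at the 3′ end could be counted for either, and their part in this ratio was not tested. Klrc2 and Klre1 followed at 2.37 in control DN cells and led the pairs in IR DN cells at 2.27. Klre1 and Klrk1 were found together at 1.81 in control DN cells, where 56.0% of cells with Klre1 had Klrk1 against 27.1% of the others.

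**Figure D4:**
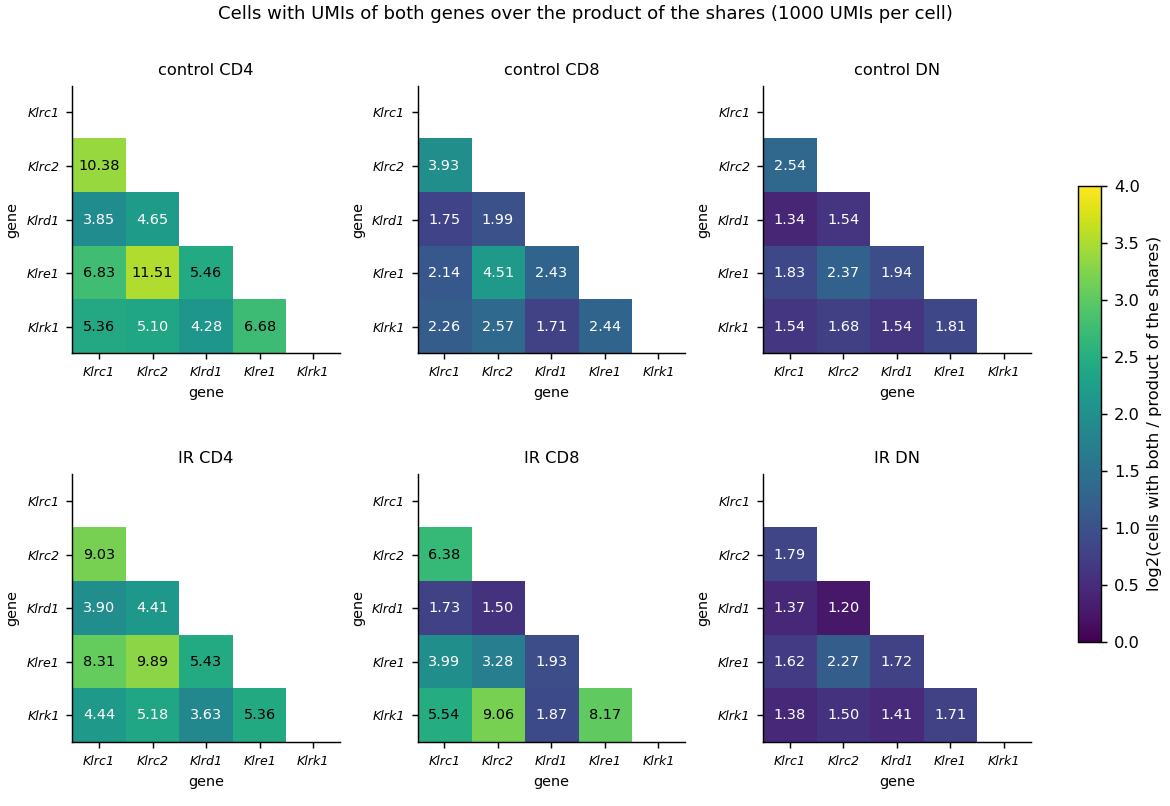
Cells with UMIs of both genes over the number given by the product of the shares, for the 10 pairs in each library (1000 UMIs per cell; colour on a log2 scale, the ratio printed in each square). All squares are above 1, and run from 1.34 to 2.54 in control DN and from 1.20 to 2.27 in IR DN cells. The share of all gene pairs above 1 was not measured. In control CD4 cells all squares, and in the other CD4 and CD8 libraries many, rest on shares within the background interval.

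Genes that stood out in the cells with a receptor UMI were taken from the control DN library, by the ratio of CPM in cells with to cells without that receptor, and read again in the IR DN library. Cells with Klre1 were led by Klra5 at 5.98-fold (interval 4.93 to 7.25), Gzma, the granzyme A gene, at 5.95-fold (5.00 to 7.08) and Klra9 at 4.75-fold, followed by the adaptor genes Tyrobp at 4.24-fold and Fcer1g at 3.84-fold. In the IR DN library the same ratios were 6.74 for Klra5, 8.76 for Gzma (7.01 to 10.9), 5.95 for Klra9, 4.11 for Tyrobp and 3.11 for Fcer1g. Klra5 and Klra9 belong to the Ly49 family of MHC class I receptors.

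Cells with Klrd1 had a similar list, with Klra9 at 3.34-fold, Tyrobp at 3.099-fold, Gzma at 2.92-fold, Fcer1g at 2.63-fold and Klra7 at 2.62-fold. In the IR DN library these ratios were 3.27, 2.36, 4.03, 2.77 and 2.93. Gzma stood at 61.9 CPM in control DN cells with Klrc1 and 79.2 CPM in those without, a ratio of 0.78 (0.60 to 1.01). In IR DN cells that ratio was 0.57 (0.38 to 0.85). The Gzma ratio of Klrc1 cells lay below the intervals of the Klrd1 and Klre1 cells in both DN libraries. Cells with Klrc2, at 1.11 (0.85 to 1.43), and with Klrk1, at 1.35 (1.13 to 1.61), were also below those intervals in the control library, and the Klrc2 interval overlapped that of Klrc1 cells. In the IR library their Gzma ratios were 2.54 and 2.55. Perforin (Prf1) stood at 2.15-fold in control and 2.21-fold in IR DN cells with Klrc1, and Gzmb at 1.65-fold and 1.84-fold.

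Cells with Klrc1 were otherwise led by Klrc2 at 3.81-fold, Klre1 at 2.25-fold, Clnk at 2.04-fold and Fgf13 at 2.00-fold. Cells with Klrc2 were led by Klrc1 at 3.56-fold, Klre1 at 3.11-fold, Fcer1g at 3.05-fold, Klra5 at 2.95-fold and Klra9 at 2.89-fold. Cells with Klrk1 were led by Klre1 at 2.99-fold, Klra5 at 2.91-fold, Klrc2 at 2.51-fold, Klra9 at 2.498-fold and Fcer1g at 2.43-fold. Those leading genes were chosen for their ratio in the control library, and their control values are a description. In the IR DN library the ratios of the leading genes of Klrc1, Klrc2 and Klrk1 cells were all above 1, though the intervals of Clnk (0.88 to 2.76) and Fgf13 (0.85 to 2.13) in Klrc1 cells and of Klra5 (0.76 to 2.95) in Klrc2 cells included 1.

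Klrb1c and Pdcd1 encode NK1.1 and PD-1, surface proteins used to mark subsets of DN T cells. Of the 1239 control DN cells with a Klrb1c UMI, 44.5% had Klrk1, 29.7% Klrd1, 26.3% Klrc1, 25.5% Klre1 and 20.98% Klrc2. In the control DN cells without Klrb1c these shares were 28.7%, 17.2%, 14.9%, 11.0% and 10.5%. Of the 133 control DN cells with a Pdcd1 UMI, 15.8% had Klrk1 (10.05 to 23.1%) and 3.76% had Klrc1 (1.23 to 8.56%), against 31.1% and 16.7% of the cells without Pdcd1. Read as CPM, Pdcd1 stood at 0.18 to 0.40 times its level in control DN cells with Klrc1, Klrc2, Klre1 or Klrk1. With Klrd1 that ratio was 0.65 (0.38 to 1.06), an interval that includes 1. In IR DN cells the shares with Klrb1c were 35.4% for Klrd1, 29.1% for Klrk1, 18.1% for Klrc1, 12.2% for Klre1 and 11.0% for Klrc2, each above the share without Klrb1c. The 60 IR DN cells with a Pdcd1 UMI had intervals that covered the share of the others for each of the 5 genes. Zbtb16, the transcription factor PLZF, stood at 0.55 to 0.67 times its level in control DN cells with a receptor UMI, over the 5 genes. In IR DN cells the ratios of Zbtb16 were 0.62 to 1.16, with each interval including 1.

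**Figure D5:**
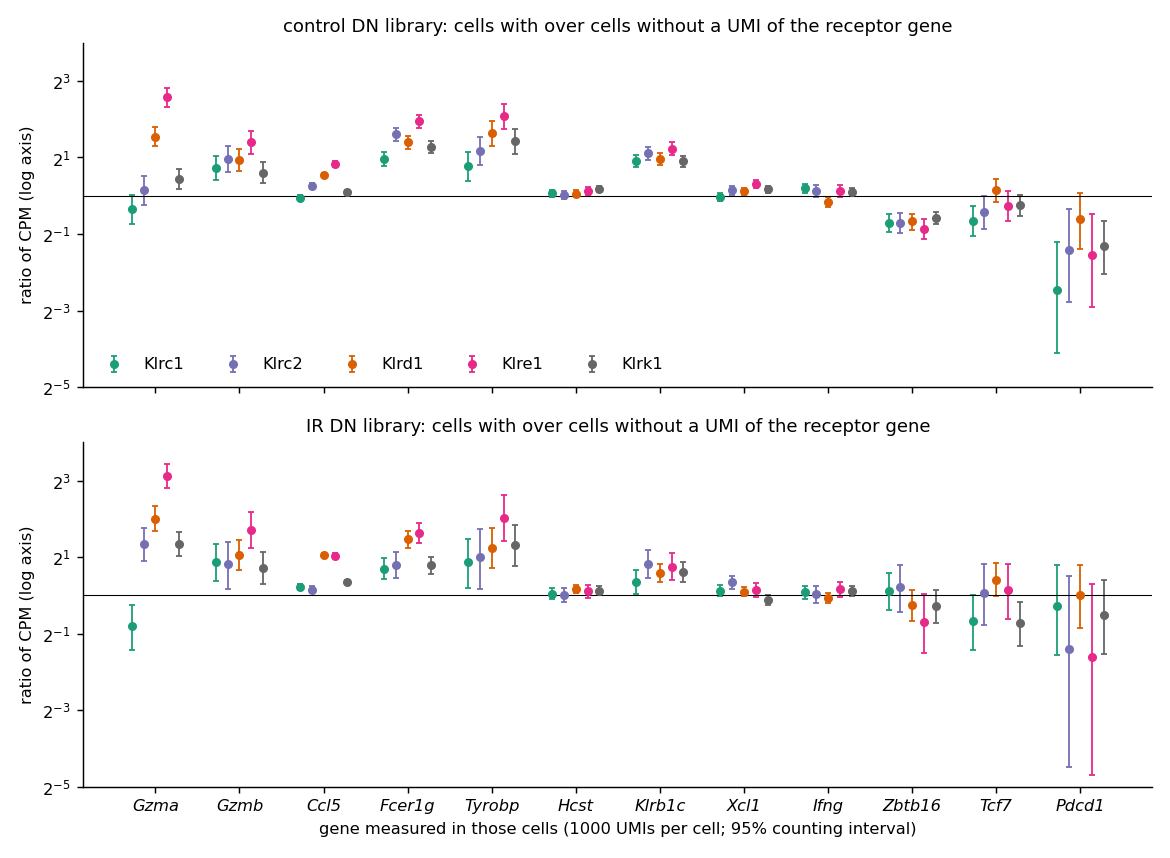
Ratio of CPM in DN cells with a UMI of each receptor gene over DN cells without, for 12 genes, in the control and the IR library (log axis, 95% counting intervals, 1000 UMIs per cell). Gzma is at 5.95-fold and 8.76-fold in cells with Klre1 and at 0.78-fold and 0.57-fold in cells with Klrc1.

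In CD8 cells Klrd1 went with Gzma as well. In the control CD8 library 33.3% of the cells with a Gzma UMI had Klrd1, against 14.9% of the others, and in the IR CD8 library 57.4% (51.9 to 62.8%) against 25.9% (24.7 to 27.0%). For Tcf7, a transcription factor of naive and memory T cells, the shares of Klrd1 in IR CD8 cells were 25.8% with and 28.0% without it, with overlapping intervals.

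Of 4 adaptor genes of activating lymphocyte receptors, Fcer1g and Tyrobp were called higher in DN than in CD4 and CD8 cells in both conditions. Of all genes 1.36% and 3.54% were called higher in control DN than in control CD4 and CD8 cells, and 4.80% and 7.66% in the IR libraries. Tyrobp, the partner of NKG2C, reached 50.3 CPM in the control DN and 53.2 CPM in the IR DN library and 4.71 to 9.66 CPM in the other libraries. Fcer1g, an adaptor of Fc receptors and of the Ncr1 product, reached 192 CPM in the control DN and 296 CPM in the IR DN library and was at 11.9 to 25.1 CPM elsewhere. Cd247, the CD3 zeta chain of the T cell receptor complex, went the other way, at 276 CPM in control DN and 123 CPM in IR DN cells against 238 to 508 CPM in the other libraries, and was called lower in IR DN than in IR CD4 cells and than in control DN cells. Hcst, the partner of NKG2D, was at 663 to 940 CPM in the control and 1317 to 1575 CPM in the IR libraries and was called in none of the 9 comparisons. In the DN cells with a Klrk1 UMI Hcst stood at 1.13-fold in the control and 1.09-fold in the IR library.

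The partners of Klre1 were sparse. Klri2 reached 19.8 CPM in the control DN and 18.5 CPM in the IR DN library, was at most 2.21 CPM elsewhere, and was called higher in DN cells in all 4 comparisons with CD4 or CD8 cells. Klri1 stood at 5.63 CPM in control DN and 0.93 CPM in IR DN cells, under the 10 CPM that the call needs. Klre1 was found with Klri1 or Klri2 in 36 control DN and 6 IR DN cells. Klrc3, the neighbouring NKG2 gene, stood at 12.8 and 12.5 CPM in the DN libraries and 1.40 to 3.21 CPM elsewhere. Of the 7 partner and neighbouring lectin genes, 6 were tested in control DN against CD4 cells, and 4 were called higher and none lower, with a median log2 ratio of 2.32, where 1.36% of all genes were called higher and 1.39% lower. In IR DN against CD4 cells 5 were called higher, and 1, Klrg1, lower, where 4.80% and 2.38% of all genes were.

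Most ligand genes were not called. None of the 6 genes of the CD94/NKG2 ligand and its peptide supply was called in any of the 9 comparisons, and H2-T23 stood at 338 to 563 CPM. Of all genes 1.36 to 8.32% were called higher and 1.39 to 17.7% lower in a comparison. At these shares the lack of calls among 6 genes is not read as particular to them. Of the 8 NKG2D ligand genes 5 were in the gene list. Raet1e stood at 68.6 to 200.4 CPM and Ulbp1 at 5.92 to 26.8 CPM, while H60c had no UMI in any library, where a count of 0 allows up to 0.0494 to 0.694 CPM. Both were called higher in IR DN than in IR CD8 cells, with log2 ratios of 1.55 and 1.28, where 7.66% of all genes were. Ulbp1 was called lower after IR in CD4 cells, with a log2 ratio of -1.51, and in CD8 cells, with a log2 ratio of -2.05, where 15.2% and 17.7% of all genes were. Of the 9 phosphatase and kinase genes tested, none was called between control DN and CD4 cells. Between control DN and CD8 cells 1 was called lower in DN cells, where 3.03% of all genes were. Between IR DN and IR CD8 cells 2 were called higher and 1 lower in DN cells, where 7.66% and 4.15% of all genes were. In IR over control DN cells 1 was called lower, Ptpn11, with a log2 ratio of -1.07, where 11.3% of all genes were, and the median of the 9 was -0.69 against -0.26 for all genes. In CD4 cells 2 of the 9 were called lower, with a median of -0.71, and in CD8 cells 3 were, with a median of -0.83, where 15.2% and 17.7% of all genes were called lower.

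Of the regulators, Eomes stood at 60.2 CPM in control CD8 and 28.8 CPM in IR CD8 cells and at most 4.07 CPM in the other libraries, and Runx3 was at 162 to 439 CPM throughout. Tbx21, the T-bet gene, was called lower after IR in all 3 subsets, with log2 ratios of -1.32 in DN, -1.72 in CD4 and -1.80 in CD8 cells. Nfil3 was called higher after IR in all 3. It went from 14.1 to 47.4 CPM in DN, 12.2 to 32.8 CPM in CD4 and 11.7 to 33.7 CPM in CD8 cells. Of all genes 11.3%, 15.2% and 17.7% were called lower in DN, CD4 and CD8 cells, and 8.32%, 7.70% and 7.96% higher. These shares also stand beside the calls after IR that follow. Markers of other cells moved with some results. Ncr1, a natural killer cell receptor gene, stood at 15.3 and 6.71 CPM in the control and IR DN libraries and at most 0.40 CPM elsewhere. All 5 natural killer cell markers were detected in each library, with a summed level of 307 and 381 CPM in the DN and 62.8 to 620 CPM in the other libraries. Gzma, which T cells also express, made up 582 CPM of the sum in IR CD8 cells, and there Ncr1 had 2 UMIs and Klra8 had 4. Klrb1c was at 209 and 233 CPM in the DN libraries and at most 70.0 CPM elsewhere. The invariant NKT cell markers Zbtb16 and Trav11 summed to 262, 207 and 2.07 CPM in control DN, CD4 and CD8 cells and to 128, 78.1 and 0.312 CPM in the IR libraries, and Zbtb16 was called lower after IR in DN and CD4 cells. The part of these markers in the receptor levels was not tested. Myeloid markers summed to at most 10.6 CPM and tubule markers to at most 2.08 CPM in each library. Erythroid markers summed to 0.857 to 1.01 CPM in the control and 18.2 to 25.5 CPM in the IR libraries, and Hba-a1 was called higher after IR in all 3 subsets. Ms4a1, a B cell gene, was at most 0.362 CPM in the control libraries and at 3.84 to 16.7 CPM in the IR libraries, and was called higher after IR in DN and CD8 cells. Their part in the differences between IR and control was not tested. Trdc, the constant gene of the TCR delta chain, was at 2.08 to 5.61 CPM.

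Across the 6 libraries the 4 genes other than Klrd1 had similar profiles. The Pearson correlations of log2(CPM + 1) among Klrc1, Klrc2, Klre1 and Klrk1 were 0.93 to 0.99, and those of Klrd1 with them were 0.13 to 0.45, over 6 libraries that differ in sort, condition and depth. Of 9649 genes, those most like Klre1 were Aoah at 0.996, Klra9 at 0.988 and Ncr1 at 0.986. Those most like Klrc1 were Cerk at 0.986, Klrc3 at 0.980 and Aoah at 0.973. Klrc2 was most like Fam204a at 0.992, Klrk1 at 0.991 and Nit1 at 0.990, and Klrk1 was most like Gm26782 at 0.993, Cerk at 0.992 and Klrc2 at 0.991. Klrd1 was most like Gpat3 at 0.987, Ap1m1 at 0.978 and Pitpnm1 at 0.971. These correlations over 6 points describe the order of the libraries only.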

How the data were processed

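The deposited data are UMI counts per gene and cell barcode in 6 libraries (10x 3′ v3.1 chemistry), which the authors made with Cell Ranger (6.0.1 per the labels and methods, 5.0.1 or 6.0.1 per the file headers) on mm10. The counts are not normalized. From them, barcodes with under 500 features, over 20% mitochondrial UMIs or among the top 5% of UMIs of a library were left out, the last as the study's guard against doublets. No doublet caller was run. Features in under 5 cells and 104 mitochondrial, ribosomal protein and Malat1 features were left out of totals, which left 21105 features. A gate per barcode (at least 1 T cell UMI and no more UMIs of non-T genes) replaced the study's clustering and left out 684 barcodes. CPM are UMIs of a gene per 1000000 summed UMIs, with exact Poisson intervals and a floor of 3 counts for 0. The totals were 4321430 to 60724994 UMIs per library. Shares have Clopper-Pearson intervals after thinning to 1000 UMIs. The interval of a ratio is an exact conditional one. Genes named are the 5 members, lists of partners, adaptors, ligands, regulators and markers, the 3 genes most correlated with each member, and the 5 with the largest ratio in control DN cells with each member at 100 CPM or more. The members and lists were chosen with earlier results of these data known. The call rule was tested on simulated data with 200 genes changed 4-fold. The co-detection ratio was tested on simulated gene pairs with a known ratio, in cells without differences in depth. Alternatives were other scalings, filters, gates, thinning depths and minimum levels. Python 3.11.15, numpy 2.4.6, scipy 1.17.1, pandas 2.3.3, matplotlib 3.10.9, blastn 2.17.0, R 4.3.3 and edgeR 4.0.16 (TMM factors) were used.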

Additional observations from a re-analysis of the deposited data

Results flagged for a closer look

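In 3 cases a member differed between the same pair of subsets in opposite directions before and after IR, with both counting intervals away from 0. The difference itself was not tested, since each group is 1 library. Klrd1 had a log2 ratio of DN over CD8 cells of 0.19 in the control libraries and -0.38 in the IR libraries. Klrc2 had a log2 ratio of CD8 over CD4 cells of 0.47 in the control libraries and -0.74 in the IR libraries, but its shares of cells in these 4 libraries were within the background intervals, and the ratios are not read as expression. Klrk1 had a log2 ratio of CD8 over CD4 cells of 0.81 in the control libraries and -0.42 in the IR libraries, and its shares were within the background intervals in control CD4, control CD8 and IR CD8 cells. None of these 6 ratios reached 2-fold. The control ratio of Klrd1 ranged from -0.46 to 0.29 over the alternatives. The ratios of Klrc2 and Klrk1 kept their sign in all alternatives run. Condition, depth and software version cannot be told apart here.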

How the results depend on the processing

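No paired analysis was possible because each group is 1 library. The calls of the 5 genes in the 9 comparisons were unchanged under TMM scaling, a mitochondrial limit of 10%, no T cell gate, a stricter gate of 3 UMIs, the barcodes with most UMIs (5%) kept, cell filters omitted, shared barcodes left out, cells thinned before summing and the mean over cells. With the removed transcripts kept, the number called higher in IR than in control CD4 cells went from 1 to 0. With a minimum of 50 CPM, the number called lower in IR than in control CD8 cells went from 2 to 1. Without cells holding a Klrb1c UMI, chosen after the data were seen, the number called higher was 2 in control DN over CD8, 5 in control CD8 over CD4 and 1 (Klrd1, log2 ratio 1.46) in IR over control DN cells. That setting kept 4904 of 8880 control DN and 3198 of 3957 IR DN cells, so it depends on depth. It kept 8094 of 9168 control CD4 and 9131 of 9276 control CD8 cells, so cells were not removed alike between subsets either. Over all genes and the 9 comparisons, 120 to 765 were called higher and 123 to 1609 lower. With no minimum CPM these counts were 1707 to 7771 and 956 to 2839, and with 50 CPM they were 50 to 383 and 50 to 850. In IR over control DN cells the higher count went from 765 to 7771 and 333.

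The share of cells with 1 or more of the genes moved with depth. In control CD4, CD8 and DN cells it was 8.82%, 19.1% and 38.4% at 500 UMIs, 26.4%, 59.2% and 73.6% without thinning, and 10.3%, 23.7% and 43.3% at 500 retained UMIs, the last chosen after the data were seen. In IR CD4, CD8 and DN cells it was 9.46%, 20.2% and 35.9%, then 21.8%, 45.6% and 60.1%, then 12.4%, 30.0% and 44.0%. The order CD4, CD8, DN stood in each setting. The 10 pairs stayed above 1 in all 6 libraries at each depth, though the share of all gene pairs above 1 was not measured. Depth limits Klrc2 and Klre1 most in IR CD8 cells, where they had 97 and 188 UMIs.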

Other observations

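Barcodes with neither a T cell nor a non-T marker UMI, which were left out of the comparisons, still held Klrd1 in the IR CD8 library. Of 72 such barcodes 14 had a Klrd1 UMI at 1000 UMIs, a share of 19.4% (11.1 to 30.5%), and none had a UMI of the other 4 genes, with an upper bound of 4.99%.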
